A study of Mus musculus with 6 samples.

Results

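Bdnf, Ntrk2, Ntrk3 and Sorcs1 were followed across all 3 pool matrices of single nuclei from mouse hypothalamus. The 4 genes were taken by name, and each was found once among the 27998 genes listed for chow, the 27998 for DIO and the 31053 for OB. Brain-derived neurotrophic factor, the product of Bdnf, is a secreted ligand. Ntrk2 encodes TrkB, the receptor tyrosine kinase that binds it, and Ntrk3 encodes TrkC, the related receptor of neurotrophin-3. Sorcs1 encodes a sorting receptor with a Vps10p domain, a family that steers other membrane and secreted proteins, neurotrophin receptors among them, between the cell surface and inner compartments.

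Mice came in 3 groups: lean mice on chow, mice with obesity induced by a high-fat diet (DIO), and ob/ob mice on chow (OB), which lack functional leptin. Each group was 1 pool of nuclei, sorted for the neuronal protein NeuN, and within it 1 hashtag marked mice given rapamycin, an inhibitor of the growth-control kinase mTORC1, and 1 marked mice given vehicle. The number of mice per hashtag is not in the labels, nor are strain, age or sex, so each of the 6 sums of nuclei is 1 sample. With 1 sample per group there is no test of rapamycin within a pool or of 1 pool against another, and the 95% intervals given with those ratios cover counting error only.

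BDNF acts on TrkB to start the Ras-MAP kinase, PI3 kinase and phospholipase C gamma cascades, and its gene is transcribed from several alternative first exons in response to neuronal activity. In the hypothalamus, loss of BDNF or TrkB causes overeating and obesity in mice and people, and the ligand is known from the ventromedial and paraventricular nuclei. TrkB also has a form without the kinase domain, which astrocytes express. Reads at the 3' end of a transcript, summed per gene, do not separate these forms.

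The gene bodies lie on GRCm38.p6 at chr2:109674700-109727043 for Bdnf, chr13:58806472-59133970 for Ntrk2, chr7:78179986-78581034 for Ntrk3 and chr19:50143295-50679129 for Sorcs1. The first spans 52 kb, while Ntrk2, Ntrk3 and Sorcs1 span 327, 401 and 536 kb. The letters TGACGT, the core of the element that the activity-dependent factor CREB binds, were searched on both strands of the RefSeq promoters, 250 bases before to 50 after each start. Of the RefSeq start sites of Bdnf, 1 has them, read on the other strand as ACGTCA and ending close upstream of the start, and that stretch is shown with the match in capitals because Bdnf is the activity-responsive member of the set.
Bdnf, GRCm38.p6, plus strand, chr2:109692340-109692435: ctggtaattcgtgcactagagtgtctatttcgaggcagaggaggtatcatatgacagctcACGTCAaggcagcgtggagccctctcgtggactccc
The match begins 36 bases before the start. The other listed start sites of Bdnf do not hold these letters. Among all 32851 promoters of this length, 7.51% hold them. That share is per promoter, so a gene with several start sites has more chances of a match. The promoters of Ntrk2 and Sorcs1 in the same table do not, and Ntrk3 has no promoter there. A match is a run of letters and not a measured site, and the 3' reads do not show which first exon was used.

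The pools held 10853 barcodes for chow, 11405 for DIO and 12284 for OB, and chow and DIO were sequenced to a median of 5826 and 5572 UMIs (distinct transcript molecules) per barcode against 2804.5 in OB. Pairs of pools shared 31 to 38 barcode sequences. The OB pool stood apart in 3 ways: its matrix came from Cell Ranger 7.0.1 rather than 6.0.0, 29.3% of its nuclei received no hashtag call against 1.75% and 2.89%, and fewer of its nuclei were neurons. An alternative call by the ratio of the tags gave 5327 OB vehicle nuclei in place of 2420, so the OB vehicle values depend on an uncertain assignment. A nucleus counted as a neuron when at least 3 of 8 neuronal markers had a UMI and no glial, vascular or pituitary list had a larger share detected. Neurons made up at most 96.0% of nuclei in the chow and DIO sums and no less than 95% there, but 83.4% of OB rapamycin and 68.7% of OB vehicle nuclei, 26109 neurons in all. The NeuN gene Rbfox3 itself was detected in 54.2% to 78.2% of these neurons. Since OB differs from chow and DIO in genotype, depth and software alike, these cannot be told apart in any comparison with OB.

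All 4 genes were detected in the neurons of every sum. Levels are given as CPM, the UMIs of a gene per 1000000 UMIs of the sum, and are compared between sums or classes, never between genes, because long genes collect more nuclear reads. Bdnf measured 23.0 CPM in chow rapamycin, 23.1 in chow vehicle, 18.2 in DIO rapamycin, 21.5 in DIO vehicle, 15.7 in OB rapamycin and 18.0 in OB vehicle. The chow sums were the highest and the OB sums the lowest. After each nucleus was thinned to 1500 UMIs, 1.9% to 3.1% of neurons had a Bdnf UMI, against 4.6% to 10.8% unthinned.

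Ntrk2 measured 346 and 320 CPM in chow rapamycin and vehicle neurons, 421 and 433 in DIO, and 407 and 384 in OB. Both chow sums lay under all 4 sums from obese mice. Ntrk3 measured 458 and 435 CPM in chow rapamycin and vehicle, 522 and 557 in DIO, and 520 and 522 in OB, which is the same order. Sorcs1 measured 458 and 438 CPM in the chow sums, 475 and 488 in the DIO sums and 491 and 478 in the OB sums, a narrower range with chow again at the bottom. In thinned neurons a UMI of Ntrk2 was seen in 36.4% to 46.6%, of Ntrk3 in 43.4% to 52.0% and of Sorcs1 in 36.3% to 38.1%.

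**Figure D1:**
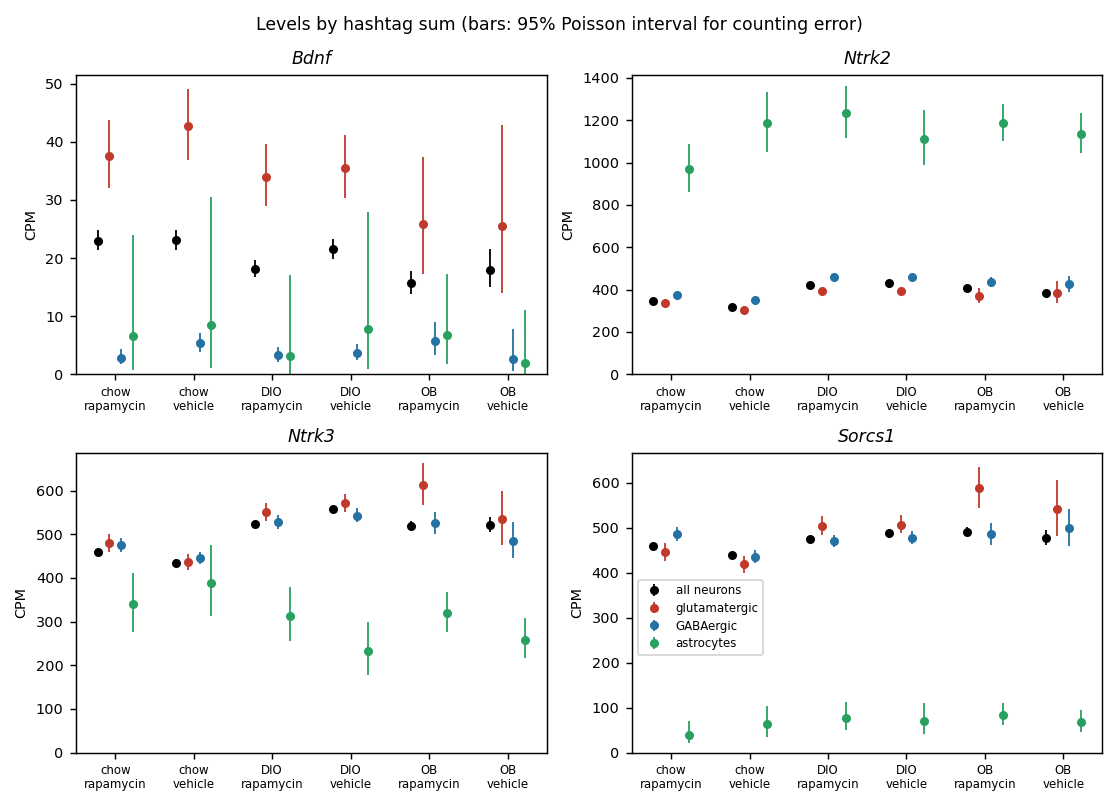
Levels of the 4 genes in CPM (vertical axes) in each of the 6 hashtag sums, for all neurons, glutamatergic neurons, GABAergic neurons and astrocytes. Points are sums and bars are exact Poisson 95% intervals, which cover counting error only. Bdnf is at 25.6 to 42.7 CPM in glutamatergic and 2.67 to 5.73 in GABAergic neurons, while the other 3 genes lie close together in both classes, and astrocytes stand above neurons for Ntrk2 and below them for Sorcs1.

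Bdnf was a gene of glutamatergic neurons in these data. Neurons were called glutamatergic with at least 2 UMIs of the vesicular glutamate transporter Slc17a6 and at least 3 times those of the GABA markers Slc32a1, Gad1 and Gad2, and GABAergic by the reverse rule, which left 60.8% to 79.9% of neurons in neither class. In glutamatergic neurons Bdnf measured 37.5 and 42.7 CPM in chow rapamycin and vehicle, 34.0 and 35.5 in the DIO sums, and 25.9 and 25.6 in OB. In GABAergic neurons it measured 2.88 and 5.31 CPM in the chow sums, 3.27 and 3.70 in the DIO sums and 5.73 and 2.67 in the OB sums. The lowest glutamatergic sum was above the highest GABAergic sum. In edgeR's quasi-likelihood test over the 12 sums, with the hashtag sample as a block and Benjamini-Hochberg adjustment, 16.7% of the 14659 genes tested were called. Bdnf was higher in glutamatergic neurons by 3.24 on the log2 scale (SE 0.12, adjusted p = 1.3e-19), in all 6 sums. Its level in GABAergic neurons was in the range of that in astrocytes, 1.98 to 8.43 CPM from 12 UMIs in all. The part of free RNA in these low levels was not tested.

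The receptors differed far less between the transmitter classes. In glutamatergic neurons Ntrk2 measured 337, 303, 391, 395, 370 and 385 CPM (chow rapamycin and vehicle, DIO rapamycin and vehicle, OB rapamycin and vehicle). The GABAergic values in the same order were 373, 351, 458, 458, 437 and 426 CPM, each above its glutamatergic partner. Ntrk2 was thus lower in glutamatergic neurons in 6 of 6 sums, by 0.16 on the log2 scale (log2 fold change -0.16, SE 0.03, edgeR adjusted p = 0.0010). The call was lost without the DIO pool (edgeR adjusted p = 0.055) and with thinned nuclei (0.43). Ntrk3 showed a log2 fold change of 0.11 (SE 0.04, edgeR adjusted p = 0.031), and that call was lost in 8 of the alternatives run, with DESeq2 among them (DESeq2 adjusted p = 0.067). Sorcs1 did not pass the test (0.09, SE 0.04, edgeR adjusted p = 0.13), but did without the chow pool (0.19) and with stricter markers (0.19).

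Other genes of the pathway were read from a list of 73, of which 66 could be tested between the transmitter classes. In edgeR, 13 were higher and 7 lower in glutamatergic neurons, where 16.7% of all genes were called, with a median log2 fold change of 0.01 over the list. Besides Bdnf, the higher genes included Ntf3, which encodes neurotrophin-3 (1.39, adjusted p = 0.010), the prohormone convertase genes Pcsk1 (1.05) and Pcsk5 (0.60), the neuroserpin gene Serpini1 (0.86) and the activity-regulated pentraxin gene Nptx2 (2.42). Of the sorting receptors, Sorcs3 (0.59) and Sorcs2 (0.34) were higher too, while Sort1 (0.07, adjusted p = 0.42) and Sorl1 (-0.13, adjusted p = 0.17) were not called. The lower genes included Vgf (-0.54), a neuropeptide precursor gene induced by neurotrophins, and the docking protein gene Gab1 (-0.47). Ntf5 and Ngfr had too few UMIs to test. The Ntf3 call was lost without the chow pool (adjusted p = 0.11), those of Vgf (0.13) and Gab1 (0.59) without DIO, and those of Sorcs2 (0.70) and Serpini1 (0.067) with thinned nuclei. In thinned nuclei only 31 list genes could be tested, with 2 higher and 0 lower, where edgeR called 201 of 2788 genes. Few of the calls on the list thus remained there.

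Within the finer neuron classes, set by UMIs of marker genes, the 4 genes followed different orders. Classes may share nuclei, and those under 50 nuclei in all were left out, which leaves 15 with the transmitter classes. Bdnf was highest in the class with Nr5a1 or Fezf1, markers of the ventromedial nucleus, which also required a UMI of Slc17a6. It measured 47.7 CPM there over all sums (95% interval 31.1 to 69.8, 65 nuclei). This interval covers the 36.4 CPM of neurons called glutamatergic. Bdnf was next highest in the class with Foxb1, a marker of the mammillary body, at 44.7 (58 nuclei). It had no UMI in the 86 nuclei with Pmch, the gene of melanin-concentrating hormone, which allows up to 4.3 CPM. All 14 pairs of neighbours in the Bdnf order had overlapping intervals.

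Ntrk2 was highest in the class with Hcrt, the orexin gene, at 633 CPM (559 to 714, 50 nuclei), and lowest in the Pmch class at 258 (226 to 294). Ntrk3 had these same 2 classes at its ends in the other direction, with 719 CPM (664 to 778) in the Pmch class and 164 (127 to 207) in the Hcrt class. Sorcs1 ran from 654 CPM (614 to 695, 226 nuclei) in neurons with a UMI of the melanocortin receptor gene Mc4r down to 123 (101 to 149) in the Pmch class and 118 in the class with Hdc, the gene of the enzyme that makes histamine. Intervals of neighbours overlapped in 13 of 14 pairs for Ntrk2, 12 for Ntrk3 and 11 for Sorcs1. The Hcrt and Pmch classes hold 4 to 23 nuclei per sum, and with classes that small no test was made.

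**Figure D2:**
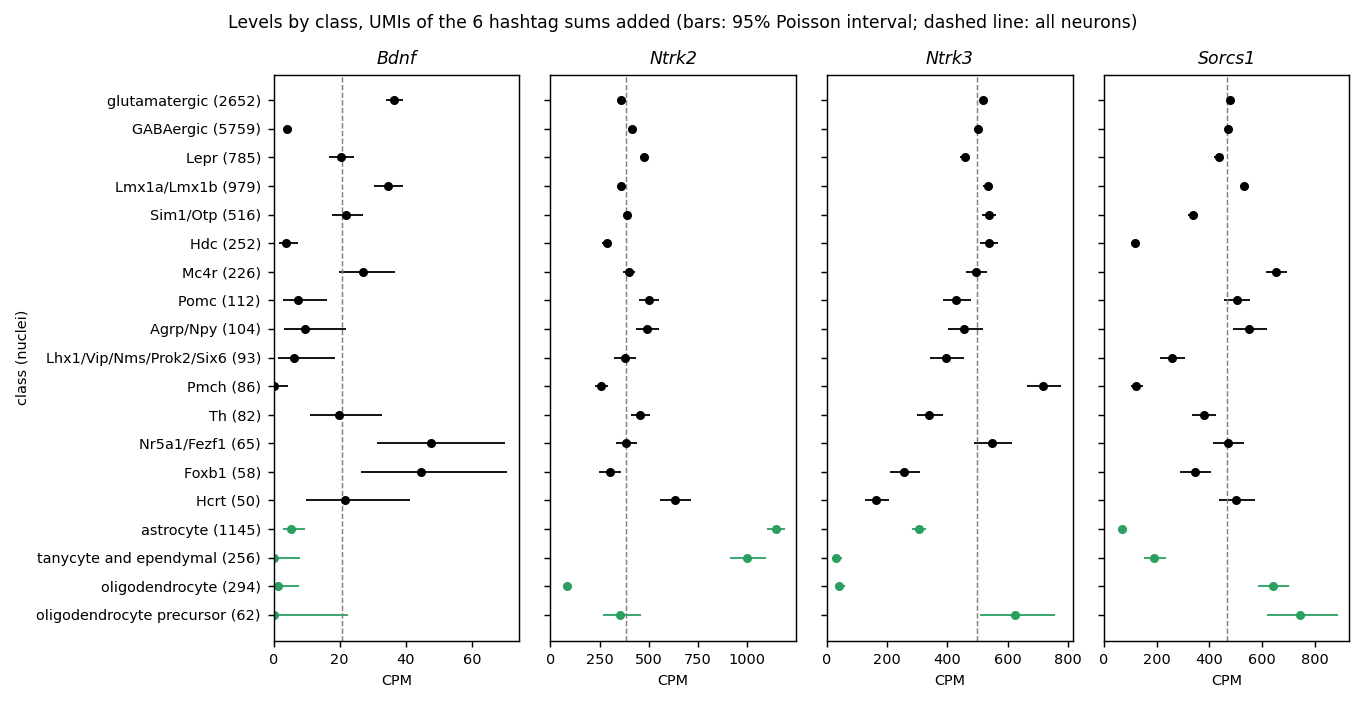
Summed level of each of the 4 genes in CPM (horizontal axes) in the neuron classes set by marker UMIs (black) and in glial lists (green), with exact Poisson 95% intervals over all 6 sums and a dashed line at all neurons. Among the neuron classes Bdnf is lowest in the Pmch class, Ntrk2 highest in the Hcrt class, Ntrk3 highest in the Pmch class, and Sorcs1 lowest in the Hdc and Pmch classes.

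The Hdc class, with 25 to 70 nuclei per sum, had low Sorcs1 in every sum. Sorcs1 there measured 125 and 122 CPM in chow rapamycin and vehicle, 126 and 107 in DIO, and 236 and 6.9 in OB, all below the all-neuron range of 438 to 491 CPM. The OB pair rests on few molecules: 34 UMIs, 16 of them in 1 nucleus, against 1 UMI. Against the other neurons of the same sum, edgeR called 29.9% of genes in the Hdc class, and 3 of the 4 genes here. Sorcs1 was lower by 2.06 on the log2 scale (log2 fold change -2.06, SE 0.10, adjusted p = 1.1e-86) and Bdnf, with 8 UMIs in all, by 2.55 (-2.55, SE 0.40, adjusted p = 1.5e-09). A p this small from so few sums needs nearly all of the dispersion to come from other genes. The p of Sorcs1 thus hardly reflects its own spread between sums, such as that of the OB pair. The Bdnf call was lost with thinned nuclei (edgeR adjusted p = 0.11). Over all sums Bdnf was at 3.71 CPM (1.60 to 7.31) in the Hdc class, near the 3.93 CPM of GABAergic neurons. Of the Hdc nuclei, 53.3% in chow, 65.3% in DIO and 34.0% in OB were called GABAergic, and at most 1.6% glutamatergic. The low Bdnf is thus not shown to be particular to this class.

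Ntrk2 in the Hdc class measured 242 and 200 CPM in chow rapamycin and vehicle, 284 and 352 in DIO, and 236 and 337 in OB, lower than all neurons in 6 of 6 sums (log2 fold change -0.55, SE 0.09, edgeR adjusted p = 3.2e-09). Ntrk3 stayed at 459 to 598 CPM and was not called (0.01, SE 0.08, edgeR adjusted p = 0.93). The pathway list had 64 tested genes in this class, with 11 higher, 24 lower and a median of -0.29. Of the other sorting receptors, Sorcs3 was lower (-3.79) and so was Sorl1 (-0.55), whereas Sorcs2 was higher (1.26). Among adaptor genes, Shc3 was lower (-2.67), while Gab1 (1.35) and Frs2 (1.09) were higher. Without the DIO pool the Gab1 call was lost (edgeR adjusted p = 0.37), and without chow that of Sorl1 (0.21).

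In the class with Sim1 and Otp, transcription factor genes of the paraventricular nucleus, Sorcs1 was the gene of the set that differed. It measured 276 and 320 CPM in chow rapamycin and vehicle, 338 and 432 in DIO, and 290 and 242 in OB, under the level of all neurons in 6 of 6 sums. The edgeR log2 fold change against other neurons was -0.55 (SE 0.07, adjusted p = 1.1e-09), in a comparison that called 9.83% of genes. Raised marker minima, which left as few as 1 nucleus in a sum, ended this call (-0.53, adjusted p = 0.13). Bdnf measured 16.1 to 25.5 CPM and was not called (0.07, edgeR adjusted p = 0.91). When only glutamatergic nuclei of the class were set against other glutamatergic neurons, Bdnf turned lower (-1.26, edgeR adjusted p = 0.015). That call rests on 96 nuclei of the class in all, with as few as 2 in a sum. Pcsk1 (1.44) and the vesicle release gene Cadps2 (0.71) were among 4 higher list genes of 64, and Homer1 (-0.63) and the adaptor gene Gab2 (-0.65) among 4 lower. Thinned nuclei ended all 4 of these named calls, with edgeR adjusted p of 0.61, 0.14, 0.15 and 0.20.

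The class with Lmx1a or Lmx1b, factors of the supramammillary region, had higher Bdnf. The values were 33.7 and 35.8 CPM in chow rapamycin and vehicle, 33.8 and 35.9 in DIO, and 31.0 and 34.5 in OB, each above all neurons of its sum. The log2 fold change was 0.85 (SE 0.10, edgeR adjusted p = 2.0e-08), in a comparison that called 13.6% of genes. Among glutamatergic nuclei alone the class did not differ in Bdnf past the threshold (0.11, SE 0.20, edgeR adjusted p = 0.88), and thinned nuclei ended the call too (0.47, adjusted p = 0.75).

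Sorcs1 measured 522 and 435 CPM in the chow nuclei of the Lmx1a and Lmx1b class, 566 and 586 in those of DIO, and 583 and 389 in those of OB. The fold change was 0.23 (SE 0.06, edgeR adjusted p = 0.0023), but chow vehicle and OB vehicle lay at or under the all-neuron level, and the call was lost without the DIO pool (0.15) and turned with thinned nuclei (-0.017, adjusted p = 0.97). Ntrk3 reached 0.15 (edgeR adjusted p = 0.045), a call that 7 of the alternatives run ended or turned, while Ntrk2 was not called (-0.07, edgeR adjusted p = 0.49). Of 67 list genes tested, 12 were higher and 9 lower. They included Ntf3 (1.80), Sorcs2 (1.10) and Sorcs3 (0.91) on the higher side and Nptx2 (-2.10) on the lower. The call of Ntf3 was lost with DESeq2 (adjusted p = 0.54), that of Nptx2 without DIO (0.22), and those of Sorcs2 (0.26) and Sorcs3 (0.19) with thinned nuclei.

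Neurons with at least 2 UMIs of the leptin receptor gene Lepr and no Agrp or Pomc call had more Ntrk2. It measured 406 and 380 CPM in chow rapamycin and vehicle, 525 and 524 in DIO, and 515 and 466 in OB, above all neurons of the same sum in 6 of 6. The log2 fold change was 0.27 (SE 0.06, edgeR adjusted p = 0.0013), where 8.08% of genes were called. The call was lost among GABAergic nuclei alone (0.24, adjusted p = 0.31) and without the DIO pool (0.25, adjusted p = 0.080), and thinning left 8 to 28 nuclei per sum and no difference of this size (log2 fold change -0.0035).

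Bdnf (-0.06), Ntrk3 (-0.12) and Sorcs1 (-0.12) were not called in the Lepr class, with edgeR adjusted p from 0.31 to 0.91. Ngfr, the p75 neurotrophin receptor gene, was higher by 2.66 (edgeR adjusted p = 0.0058) from few UMIs. Of 66 list genes tested, 8 were higher, with Gab1 (1.20), Vgf (1.12) and Sorcs3 (0.36) among them. The 3 lower were Sorcs2 (-0.38), Pcsk5 (-0.59) and Serpini1 (-0.59). Without the DIO pool the calls of Gab1 (edgeR adjusted p = 0.29), Vgf (0.11) and Sorcs2 (0.76) were lost, and without astrocyte UMIs that of Ngfr (0.058). Among GABAergic nuclei alone Sorcs3 turned to -0.11 (edgeR adjusted p = 0.81) and the Serpini1 call was lost (0.068).

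Outside neurons, Ntrk2 was the astrocyte gene of the set. In astrocyte nuclei it measured 971 and 1185 CPM in chow rapamycin and vehicle, 1236 and 1112 in DIO, and 1186 and 1136 in OB, above the neuronal level in every sum. In an added edgeR comparison with neurons, which called 53.6% of genes, its log2 fold change was 1.48 (SE 0.11, adjusted p = 2.9e-11). Sorcs1 at 39.9 to 83.9 CPM was lower than in neurons (-2.90, SE 0.14, adjusted p = 2.1e-15), as were Ntrk3 (-0.80, adjusted p = 1.9e-05) and Bdnf (-1.91, adjusted p = 3.7e-05). The other sorting receptors did not move as 1 group, with Sorl1 (1.89) and Sorcs2 (2.10) higher in astrocytes and Sorcs3 lower (-2.65). In summed nuclei of the tanycyte and ependymal list Ntrk2 measured 999 CPM and Ntrk3 30.2, whereas Sorcs1 measured 640 CPM in the oligodendrocyte list and 745 in that of their precursors. The precursor list held only 3 to 5 nuclei in each chow and DIO sum. The tanycyte and ependymal list held 0 in chow rapamycin and 1 in chow vehicle.

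Nuclei with a Bdnf UMI numbered 2254 of 26109 neurons and carried more UMIs on average in every sum, such as 7364 against 6326 in chow rapamycin. Against the remaining neurons, in a second added comparison that called 9.39% of genes, edgeR found no difference past the threshold in Ntrk2 (-0.02, adjusted p = 0.79), Ntrk3 (0.07, adjusted p = 0.13) or Sorcs1 (0.07, adjusted p = 0.31). Adcyap1, the gene of the neuropeptide PACAP, was higher by 1.67 and Ntf3 by 1.60. Gad1 (-2.13), Gad2 (-1.79), Hdc (-2.10) and Pmch (-1.73) were lower. Of the pathway list, 14 of 68 genes tested were higher, Bdnf itself among them, and 0 lower. With thinned nuclei 1 of 63 was higher and 0 lower, where edgeR called 181 of 12307 genes. After thinning, the share of neurons with a Ntrk2 UMI ran from 39.3% to 48.8% over the 6 sums among those with Bdnf and from 36.2% to 46.6% among the rest. It was higher with Bdnf in 3 of 6 sums (both chow sums and DIO vehicle) and lower in the others, with overlapping intervals in all 6.

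Across the 15 classes, the genes whose log2(CPM + 1) followed a member most closely were ranked among 11233 genes by Pearson's r, as a description. Classes share libraries and in part nuclei. Bdnf went with Mllt6 (0.89), Pcdh15 (0.87), Adgrl2 (0.86), Arrb2 (0.86) and Cadm4 (0.84). Ntrk2 went with Gnas (0.92), Ggps1 (0.91), Dlk1 (0.90), Plagl1 (0.90) and Dars (0.88). Ntrk3 went with Ero1lb (0.91), Mbd3 (0.90), Aplf (0.89), Hscb (0.88) and Ppp1r7 (0.88). Sorcs1 went with Celsr2 (0.96), Shc3 (0.89), Pdzd4 (0.88), Itpr1 (0.88) and Ext2 (0.88). Among the members, Sorcs1 ran with Ntrk2 (0.69) and Bdnf (0.68), and Ntrk3 against Ntrk2 (-0.55).

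Sorcs1 differed several-fold between pools in neurons with at least 2 Agrp and 1 Npy UMIs, the markers of hunger-driving neurons of the arcuate nucleus. It was singled out after its values were seen. Sorcs1 measured 223 CPM in chow rapamycin, 185 in chow vehicle, 52.2 in DIO rapamycin, 152 in DIO vehicle, 932 in OB rapamycin and 1306 in OB vehicle. Both OB sums lay above all 4 others. With both hashtags together the class held 32 chow nuclei with 44 Sorcs1 UMIs, 11 DIO nuclei with 8, and 61 OB nuclei with 241.

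The level in that class was 206 CPM for chow (150 to 277), 103 for DIO (44.4 to 202) and 999.6 for OB (877 to 1134). The OB over chow ratio was 4.90-fold (log2 2.29, 1.82 to 2.79). In this class 49.2% of genes were past a log2 ratio of 0.32 in either direction between OB and chow, 51.6% between DIO and chow and 58.5% between OB and DIO, so ratios of that size are common there. The 5th to 95th percentiles of all genes between OB and chow were -0.92 to 0.93, and the Sorcs1 ratio lay above them. In thinned nuclei, 57.4% of the OB nuclei had a Sorcs1 UMI against 21.9% in chow and 18.2% in DIO. Without the nucleus with the most Sorcs1 UMIs in each pool, OB was at 920 CPM, chow at 137 and DIO at 71.8. The DIO and chow order was not stable, with DIO at 346 and chow at 200 CPM when at least 4 Agrp UMIs alone defined the class. OB stayed above both, at 825 CPM.

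The markers of the Agrp and Npy class differed between pools as well, but UMI minima of Agrp and Npy define the class. In nuclei of lower depth these minima alone raise the CPM of both genes. Agrp measured 693 CPM in chow, 450 in DIO and 1029 in OB nuclei of the class, Npy 216, 154 and 618, and Lepr 155, 141 and 456. The pan-neuronal gene Snap25 measured 558, 681 and 896 CPM. Median depth was 6368.5 UMIs per chow nucleus, 7120 per DIO nucleus and 3806 per OB nucleus. The part of class definition, depth, software and genotype in the Sorcs1 difference cannot be told apart.

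**Figure D3:**
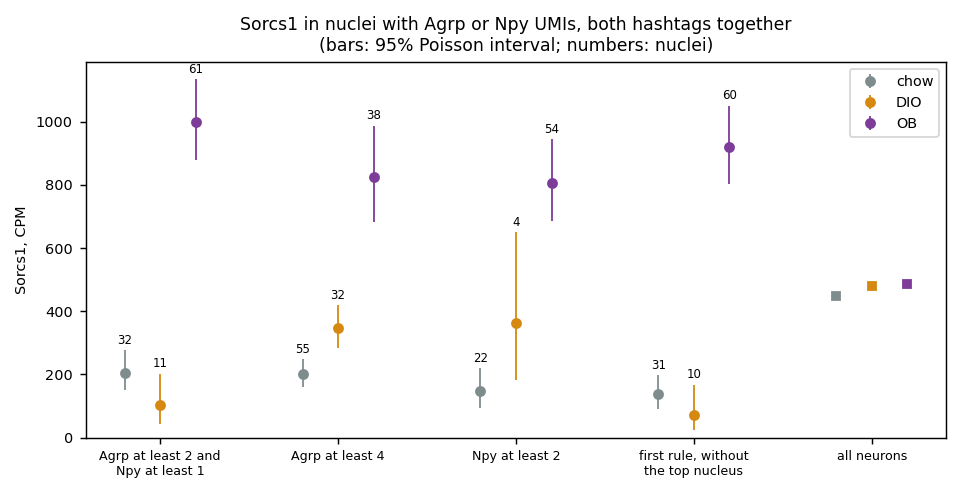
Sorcs1 in the Agrp and Npy class by pool, as CPM (vertical axis) under each rule for the class and in all neurons, with exact Poisson 95% intervals and the number of nuclei above each bar. OB is highest under each rule for the class drawn, and the order of DIO and chow changes with the rule.

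Between pools, vehicle neurons of DIO mice held more Ntrk2 and Ntrk3 than those of chow mice. The log2 ratio of DIO over chow was 0.44 (0.40 to 0.48) for Ntrk2, 0.36 (0.32 to 0.39) for Ntrk3, 0.15 (0.12 to 0.19) for Sorcs1 and -0.10 (-0.26 to 0.05) for Bdnf. Of the 4 genes, 2 were past a log2 ratio of 0.32 in either direction, as were 38.4% of all genes measured. The rapamycin sums gave 0.28, 0.19, 0.05 and -0.34 in the same order of genes. The receptors were also higher within the transmitter classes, Ntrk2 by 0.38 in both glutamatergic and GABAergic vehicle neurons and Ntrk3 by 0.39 and 0.28. With thinned nuclei Ntrk2 was at 0.96 (0.18 to 1.77) and Ntrk3 at 0.80 (0.13 to 1.49) in glutamatergic neurons, and Ntrk3 at 0.12 (-0.21 to 0.46) in GABAergic neurons, while raised marker minima gave 0.25 (0.10 to 0.40) for Ntrk2 in glutamatergic neurons. All 8 astrocyte markers had UMIs in neurons of every sum, and they summed to 32.4 CPM in chow and 38.3 in DIO vehicle neurons. In neurons with no astrocyte UMI the Ntrk2 ratio was 0.43. With marker levels this low, a nucleus without such a UMI can still hold astrocyte RNA, so the part of that RNA was not tested.

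Long genes as a group were higher in DIO vehicle neurons. The median log2 ratio of DIO over chow was -0.15 for genes under 50 kb, 0.10 for those of 50 to 200 kb and 0.20 for the 962 genes over 200 kb, whose 5th to 95th percentiles ran from -0.14 to 0.62. All 3 long members lay inside that range, with Ntrk2 and Ntrk3 above its median and Sorcs1 below it. Gene length was matched for 89.8% of the genes measured. The part of length in the receptor ratios was not tested.

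**Figure D4:**
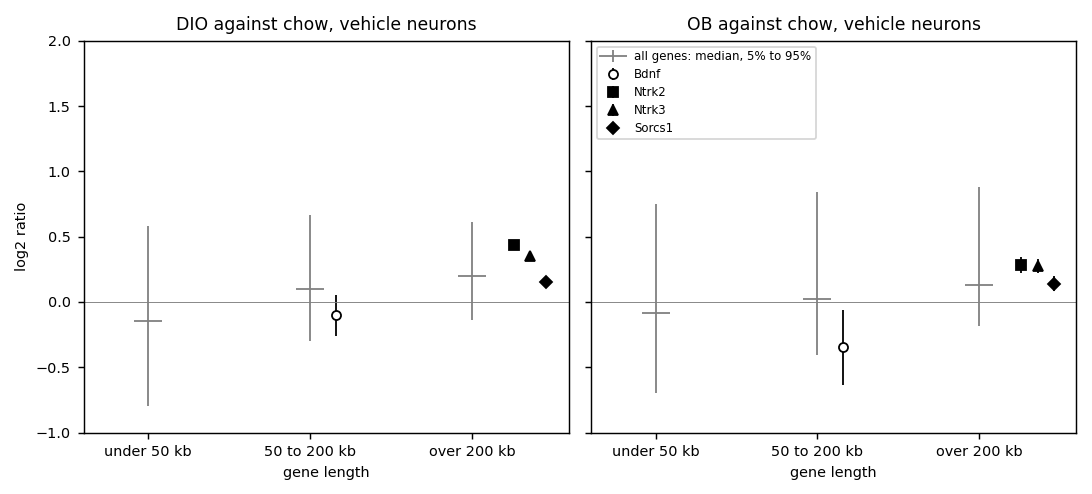
Log2 ratios of DIO over chow and OB over chow in vehicle neurons (vertical axis) for the 4 genes beside the median and the 5th to 95th percentiles of all measured genes of their length class. Ntrk2 at 0.44 and Ntrk3 at 0.36 lie above the median of 0.20 for genes over 200 kb and inside the range.

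OB vehicle neurons gave a log2 ratio over chow of 0.28 (0.22 to 0.34) for Ntrk2, 0.28 (0.22 to 0.33) for Ntrk3, 0.14 (0.08 to 0.20) for Sorcs1 and -0.34 (-0.63 to -0.07) for Bdnf. Of the 4, Bdnf alone was past 0.32 in either direction, where 36.0% of genes were. In OB vehicle neurons astrocyte markers summed to 118 CPM, and without nuclei holding an astrocyte UMI the Bdnf ratio was -0.32. OB over DIO gave -0.16 for Ntrk2, -0.08 for Ntrk3, -0.02 for Sorcs1 and -0.24 for Bdnf, with none of the 4 past that size and 34.4% of genes past it. With hashtags called by the tag ratio, OB over chow was 0.24 for Ntrk2, 0.29 for Ntrk3, 0.19 for Sorcs1 and -0.40 for Bdnf.

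The same comparisons of vehicle neurons placed other neurotrophin genes beside the members. Of the sorting receptors, Sorcs2 was higher in DIO than chow by 0.78 (0.69 to 0.88) and Sorcs3 by 0.38 (0.34 to 0.41), against -0.00 for Sort1 and 0.23 for Sorl1. OB over chow gave 0.41 for Sorcs2, 0.39 for Sorcs3, -0.24 for Sort1 and 0.32 for Sorl1. Ntf3 had 80 UMIs in DIO and 40 in chow vehicle neurons (1.12, 0.55 to 1.70), and Ngfr had 28 against 4. Over the list, 10 genes were higher and 9 lower past 0.32 of 70 measured in DIO over chow, and 9 and 2 of 67 in OB over chow. Among all genes 16.1% were higher and 22.3% lower past that size in DIO over chow, and 18.0% each way in OB over chow.

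With rapamycin none of the 4 genes was past a log2 ratio of 0.32 in either direction in all neurons of any pool, where 7.56% of genes in chow, 13.6% in DIO and 16.2% in OB were past it. Bdnf gave a log2 ratio of rapamycin over vehicle of -0.01 for chow (-0.16 to 0.15), -0.24 for DIO (-0.41 to -0.08) and -0.20 for OB (-0.51 to 0.13). Ntrk2 gave 0.11 (0.08 to 0.15), -0.04 (-0.08 to -0.01) and 0.08 (0.02 to 0.15). The receptor was thus slightly higher with rapamycin in chow and OB and slightly lower in DIO, but with glutamatergic and GABAergic neurons at equal weight the OB ratio turned to -0.0088 and the DIO ratio shrank to -0.0050. Ntrk3 gave 0.07, -0.09 and -0.01, and Sorcs1 0.06, -0.04 and 0.04. All these ratios lay inside the 5th to 95th percentiles of all genes, which for chow were -0.31 to 0.23, for DIO -0.29 to 0.42 and for OB -0.43 to 0.41.

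With the 3 pools taken as replicates of the rapamycin effect and the pool as a block, edgeR called 82 of 17859 genes (0.459%) in all neurons and 0 of the 4 members. The number called was 219 without the chow pool, 13 without DIO and 17 without OB. Bdnf had a log2 fold change of -0.14 (SE 0.08, adjusted p = 0.93), Ntrk2 0.05 (SE 0.06), Ntrk3 -0.01 (SE 0.06) and Sorcs1 0.02 (SE 0.06), all 3 with an adjusted p of 0.999. None of the 4 had an unadjusted p under 0.05, and DESeq2 also called 0. In glutamatergic neurons edgeR called 0.0499% of genes and in GABAergic neurons 0.0132%, again with 0 of the 4 called and 0 at an unadjusted p under 0.05. A p above the threshold does not show that rapamycin left these genes as they were.

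**Figure D5:**
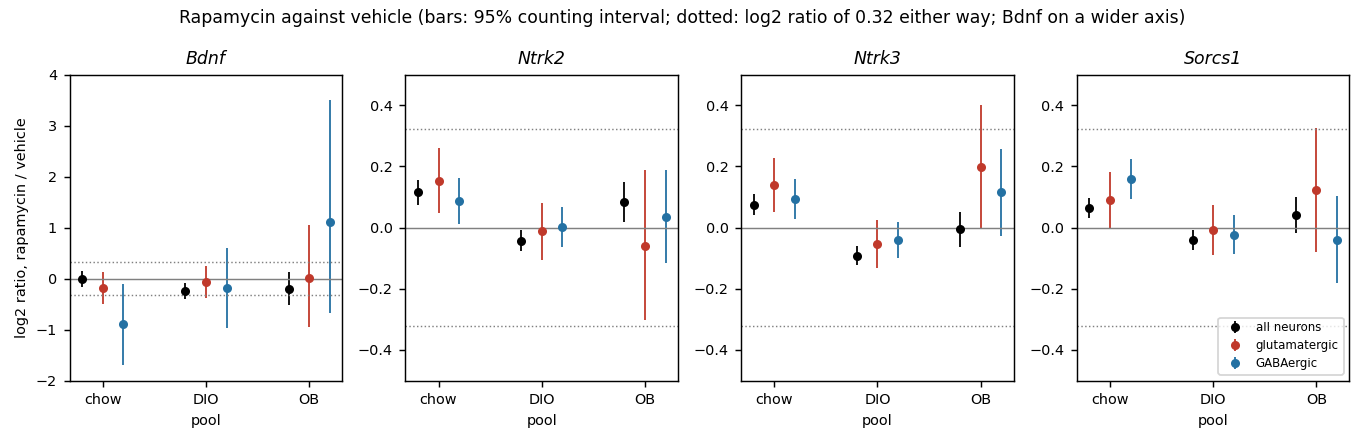
Log2 ratio of rapamycin over vehicle (vertical axes) for each of the 4 genes in all neurons, glutamatergic neurons and GABAergic neurons of the 3 pools (horizontal axes), with exact 95% counting intervals. Dotted lines mark 0.32 in either direction, Bdnf has a wider axis of its own, and every point for all neurons lies between the dotted lines.

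Within 6 neuron classes and 3 pools, 60 of 72 ratios had at least 50 UMIs, and 7 of them were past 0.32 in either direction. Among all genes the share past that size in chow, DIO and OB was 15.2%, 19.7% and 29.8% in glutamatergic neurons and 11.0%, 15.0% and 28.7% in GABAergic neurons. It was 24.5%, 24.4% and 37.5% with Lepr, 25.5%, 28.8% and 41.5% with Sim1 and Otp, 22.4%, 24.8% and 37.2% with Lmx1a or Lmx1b, and 33.2%, 33.8% and 36.7% with Hdc. In chow GABAergic neurons Bdnf had 22 UMIs with rapamycin and 44 with vehicle (log2 ratio -0.89, -1.69 to -0.12). In the DIO Lepr class Bdnf had 17 against 48 UMIs (-1.08, -1.97 to -0.26) and Sorcs1 measured 366 against 488 CPM (-0.41, -0.58 to -0.25). In the other pools the Lepr class held too few Bdnf UMIs for a ratio, 14 against 25 in chow and 7 against 6 in OB.

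The remaining ratios of that size were those of Sorcs1 in the DIO Sim1 and Otp class (-0.35), Sorcs1 in the OB Lmx1a and Lmx1b class (0.58), Ntrk3 in the OB Sim1 and Otp class (0.41, -0.01 to 0.85) and Ntrk2 in the OB Hdc class (-0.51, -1.19 to 0.15). The last 2 intervals include 0.

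Among pathway genes, rapamycin lowered 3 of 71 tested across the pools in edgeR and raised 0, where 0.459% of all genes were called, with a median log2 fold change of -0.01. The 3 were the immediate-early genes Egr1 (-0.74, adjusted p = 0.0064) and Fos (-0.64, adjusted p = 0.0095), which neuronal activity induces, and Pcsk1 (-0.31, adjusted p = 0.0014). Each of these calls was lost in 7 of 11 alternatives. The 11 include raised marker minima, which leave the sums of all neurons unchanged and so could not end a call. Without DIO the edgeR fold changes were -0.26 for Egr1, -0.04 for Fos and -0.26 for Pcsk1, and without OB -0.65, -0.44 and -0.17, all with an adjusted p above 0.20. Without chow they were larger, at -1.52, -1.66 and -0.51, and called. DESeq2 called 0 of 17859 genes in this comparison. By pool, Fos was at 0.52 in chow, -1.91 in DIO and -1.30 in OB, so its direction differed between pools. Egr1 was at 0.04 (-0.29 to 0.38) for chow, -1.72 for DIO and -1.15 for OB. In the same order Pcsk1 was at 0.02 (-0.10 to 0.14), -0.34 and -0.72, so neither was lower in the chow pool.

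Past 0.32 in either direction were 1 higher and 3 lower of 69 list genes in chow, 2 and 5 of 69 in DIO, and 5 and 4 of 64 in OB. Among all genes the shares higher in chow, DIO and OB were 2.83%, 9.41% and 8.07%, and the shares lower 4.73%, 4.15% and 8.17%. Beside Egr1 and Fos, the extremes included Nradd (-0.72) in chow, Ndn (0.50) and Hras (0.39) in DIO, and Vgf (0.73) and Nptx2 (0.42) in OB. Ntf3 was lower with rapamycin in DIO (-0.70, -1.22 to -0.20). The sorting receptors Sort1, Sorl1, Sorcs2 and Sorcs3 stayed within 0.32 in all 3 pools, for example Sorcs3 at 0.15, -0.07 and -0.12. In glutamatergic and GABAergic neurons edgeR called 0 of 65 and 0 of 67 list genes.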

How the data were processed

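The authors deposited raw counts (UMIs of each gene and reads of each hashtag by barcode), made with Cell Ranger 6.0.0 on mm10 per the submitters' processing notes and with 7.0.1 for OB per the file headers. The intron setting is not given in the sources used here. Nuclei were kept from 500 UMIs and 300 genes upwards if mitochondrial UMIs were under 5%. Hashtags were called with HTODemux (Seurat 5.3.0, quantile 0.99), and the key deposited by the authors assigns tag 1 to rapamycin and tag 2 to vehicle. Doublets between hashtags were removed and no further doublet caller was run. UMIs were summed per hashtag and class and divided by the sum's total.

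Intervals are exact at 95% (Poisson for levels, conditional binomial for ratios, binomial for shares). Genes needed 50 UMIs in both sums together, and comparisons between pools used the 27514 genes shared by identifier. Tests used edgeR 4.0.16 (filterByExpr, TMM scaling, quasi-likelihood fit, calls at an adjusted p up to 0.05) with DESeq2 1.42.0 as alternative, in R 4.3.3. They treat hashtag sums as replicates and draw part of the dispersion, and nearly all of it in the Hdc class, from other genes. A p-value thus does not measure the spread of its own gene between these sums alone. The code was tested on simulated data. Alternatives were a tag ratio, thinning to 1500 UMIs, a 1000 UMI minimum, neurons without astrocyte UMIs, marker minima raised by 1 or set to 1, TMM scaling, equal weights, and leaving out each pool.

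The members, classes and lists were chosen with earlier results of these data known. Named were the 4 members, 9 further neurotrophin genes, and the 2 highest and 2 lowest of the other list genes. Some genes that this rule names are not reported here. Where edgeR called list genes, examples were chosen after their values were seen. The astrocyte and Bdnf UMI comparisons and the other Agrp rules were added after seeing the data.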

Additional observations from a re-analysis of the deposited data

Results flagged for a closer look

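Ratios of rapamycin over vehicle whose counting intervals lay on opposite sides of 0 in different pools were singled out. In all neurons the log2 ratio of Ntrk2 was 0.1146 in chow, -0.0436 in DIO and 0.082 in OB. That of Ntrk3 was 0.0748 in chow and -0.092 in DIO, and that of Sorcs1 0.0637 in chow and -0.0395 in DIO. In neurons of neither transmitter class Ntrk2 gave 0.1215 for chow, -0.0749 for DIO and 0.1024 for OB. Ntrk3 there gave 0.051 for chow and -0.1223 for DIO. With 1 sum per treatment in a pool, none of these differences was tested. The DIO minus chow difference of the log2 ratios was -0.16 for Ntrk2, -0.17 for Ntrk3 and -0.10 for Sorcs1. Genes over 200 kb as a whole had a median of 0.04 in chow and -0.08 in DIO, the same signs as these 3 long genes. In OB their median was -0.02, where Ntrk2 was at 0.082, Sorcs1 at 0.041 and Ntrk3 at -0.006. The part of gene length in these ratios was not tested.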

How the results depend on the processing

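The rapamycin test paired the sums of each pool through the pool block, and without it edgeR called 0 genes for rapamycin in all neurons, against 82 with it. The labels number no replicates, so no other pairing was tried.

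With nuclei thinned to 1500 UMIs, on which the class calls were also made, mean CPM of Sorcs1 was 419 in glutamatergic and 440.1 in GABAergic neurons. The ratios of rapamycin over vehicle in DIO were -0.080 for Ntrk2, -0.13 for Ntrk3 and -0.086 for Sorcs1. DIO over chow in vehicle neurons was 0.50 for Ntrk2, 0.41 for Ntrk3 and 0.11 for Sorcs1 (-0.15 in GABAergic neurons), and OB over chow 0.35 for Ntrk3 and 0.073 for Sorcs1 (-0.038 in GABAergic neurons), with OB over DIO at 0.21 for Ntrk3 in GABAergic neurons. Across pools the rapamycin fold change was -0.017 for Sorcs1 in all neurons and -0.24 and -0.0012 for Ntrk2 in glutamatergic and GABAergic neurons, and 10 genes were called in all neurons. Glutamatergic over GABAergic gave -0.25 for Ntrk2, 0.076 for Ntrk3 and -0.065 for Sorcs1. In the classes, thinning gave -0.0035 for Ntrk2 and -0.85 for Ntrk3 with Lepr, the latter past the threshold. It gave -0.16 for Bdnf, -0.76 for Ntrk2 and -0.66 for Ntrk3 with Sim1 and Otp. With Lmx1a or Lmx1b it gave 0.47 for Bdnf, -0.38 for Ntrk3 and -0.017 for Sorcs1. With Hdc it gave -2.56 for Bdnf and -0.34 for Ntrk3, and in nuclei with a Bdnf UMI -0.063 for Ntrk3 and -0.010 for Sorcs1. Thinning and the class calls on fewer UMIs changed together, so the cause was not tested.

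Weighting glutamatergic and GABAergic neurons equally gave rapamycin ratios in chow of -0.25 for Bdnf, 0.12 for Ntrk3 and 0.12 for Sorcs1. In DIO it gave -0.074 for Bdnf, -0.0050 for Ntrk2 and -0.048 for Ntrk3, and in OB 0.16 for Bdnf, -0.0088 for Ntrk2 and 0.16 for Ntrk3. It leaves out the neurons of neither class. TMM scaling gave -0.079 for Ntrk2, -0.13 for Ntrk3 and -0.075 for Sorcs1 in DIO, and DIO over chow of 0.39 for Ntrk3 and 0.19 for Sorcs1.

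Raised marker minima gave 0.19 for Sorcs1 between the transmitter classes, now called. They gave -1.76 for Bdnf, -0.11 for Ntrk2, -0.22 for Ntrk3 and -0.53 for Sorcs1 with Sim1 and Otp, and 0.14 for Ntrk3 and 0.17 for Sorcs1 with Lmx1a or Lmx1b. Ntrk3 was -0.0037 for OB over chow in GABAergic vehicle neurons and -0.0075 for rapamycin in glutamatergic neurons. The class then held fewer nuclei.

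The Ntrk3 difference between transmitter classes was not called with DESeq2 (0.11), without TMM (0.067), with genes of at least 1 UMI (0.096), with the tag ratio (0.096) or without astrocyte UMIs (0.099). Without TMM, Ntrk3 with Lmx1a or Lmx1b was 0.080. Genes of at least 1 UMI gave it 0.11, Ntrk2 with Sim1 and Otp -0.025 and Ntrk3 with Hdc -0.026. Without astrocyte UMIs, Bdnf with Lepr was 0.025 and Ntrk2 with Sim1 and Otp -0.0039. Against other neurons of the same transmitter class, Ntrk2 with Lepr was 0.24. With Sim1 and Otp, where a sum held as few as 2 such nuclei, Bdnf was -1.26, Ntrk2 -0.099 and Ntrk3 -0.11. With Lmx1a or Lmx1b, Bdnf was 0.11, Ntrk2 0.051 and Ntrk3 0.14, and with Hdc, Ntrk3 was -0.0028. For Bdnf with Lepr or Hdc that comparison could not be run, since Bdnf did not pass the filter, nor could the thinned test of Bdnf between transmitter classes.

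Leaving out 1 pool in turn gave ranges for rapamycin in all neurons of -0.0037 to 0.11 for Ntrk2, -0.071 to 0.044 for Ntrk3 and -0.021 to 0.061 for Sorcs1. In glutamatergic neurons Ntrk2 ran from -0.056 to 0.078. In GABAergic neurons Bdnf ran from -0.53 to 0.079, Ntrk2 from -0.011 to 0.061, Ntrk3 from -0.0038 to 0.0998 and Sorcs1 from -0.056 to 0.068. Between transmitter classes Ntrk2 ran from -0.16 to -0.15, Ntrk3 from 0.070 to 0.17 and Sorcs1 from 0.042 to 0.19. With Lepr, Bdnf ran from -0.15 to 0.10, Ntrk2 from 0.25 to 0.27 and Ntrk3 from -0.18 to -0.041. With Sim1 and Otp, Bdnf ran from -0.0040 to 0.16, Ntrk2 from -0.020 to 0.051 and Ntrk3 from -0.018 to 0.10. With Lmx1a or Lmx1b, Ntrk3 ran from 0.098 to 0.19 and Sorcs1 from 0.15 to 0.26, and with Hdc, Ntrk3 from -0.0078 to 0.071.

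Genes called for rapamycin in all neurons numbered 82, with DESeq2 0, with the tag ratio 20, without astrocyte UMIs 20, and 13 to 219 without 1 pool. The main and lowest counts were 2454 and 201 between transmitter classes, 1187 and 436 with Lepr, 1417 and 371 with Sim1 and Otp, 1960 and 223 with Lmx1a or Lmx1b, 4420 and 1747 with Hdc, and 1413 and 181 with a Bdnf UMI. For rapamycin in glutamatergic neurons 7 genes were called and 0 to 35 in alternatives, and in GABAergic neurons 2 and 0 to 102. The other 422 cases of a main result under an alternative were classed as the same, but this class did not require an unchanged sign. With the tag ratio, Sorcs1 for rapamycin over vehicle in all OB neurons went from 0.041 to -0.0062. For OB over DIO in all vehicle neurons Sorcs1 went from -0.015 to 0.038. Depth limits the class ratios within a pool, of which 60 of 72 reached 50 UMIs.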
